A study of Mus musculus with 92 samples.

Results

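The libraries described here follow Adar KO mouse ER-Hoxb8s, made with sgRNA #1, from the progenitor stage to the macrophage stage. They were chosen by their labels: the 3 progenitor libraries and the 3 libraries of macrophages after 7div that carry this guide, which are 6 of the 92 libraries in the series and share a normalization set. The series measured bulk RNA from conditionally immortalized myeloid cells, from primary cells of the same lineage and from cells recovered from brains. ER-Hoxb8s are bone marrow progenitors that keep dividing while beta-estradiol holds an estrogen-regulated Hoxb8 fusion active, and that mature once the hormone is withdrawn. The comparison asks which genes change as Adar KO progenitors become macrophages, and which of these changes differ from those of cells with a non-targeting guide (NTC).

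Every group used carries the Cas9 het genotype and was grown in a dish with no baricitinib. The main groups are Adar KO (sgRNA #1) progenitors (Cas9 het; Adar KO, n = 3), held in RPMI with beta-estradiol and GM-CSF, and Adar KO (sgRNA #1) macrophages (Cas9 het; Adar KO, n = 3), held in DMEM with serum and M-CSF for 7 days. Their counterparts are NTC progenitors (Cas9 het; NTC, n = 3) and NTC macrophages after 7div (Cas9 het; NTC, n = 3), of which replicate 2 was normalized apart from the rest and is left out of the main tests, so that 2 remain. Adar KO (sgRNA #2) progenitors (n = 3) and macrophages after 7div (n = 5) form a separate normalization set. Stage, medium, growth factor and hormone change together between progenitors and macrophages and cannot be told apart. The labels do not say whether the KO cells are a clone or a mixed population, nor whether replicates are separate cultures, so the p-values measure the spread between these libraries.

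As background, ADAR1 is the enzyme that converts adenosine to inosine in double-stranded RNA, and the long form of the protein is itself induced by interferon. Unedited cellular double-stranded RNA can be bound by MDA5, the product of Ifih1, which signals through MAVS to the genes of type I interferon. Interferon then acts through its receptor and the factors STAT2 and IRF9 on genes that hold an interferon-stimulated response element, and macrophages are strong producers of this response.

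Values are log2 CPM after the authors' TMM scaling, so that libraries differ in their CPM sum, and differences are log2 fold changes, written log2FC. Estimated depth was between 17.23 M and 22.04 M reads in the Adar KO progenitors and between 28.51 M and 41.83 M in the Adar KO macrophages. A gene was called when its adjusted p was below 0.05 and its log2FC was at least 2 in size, and "rose" and "fell" are used of called genes. A library with no read for a gene has the lowest value of its set, -3.43 in the 11 libraries fitted together.

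Adar itself was higher in macrophages. Its level was 4.36, 4.23 and 4.24 log2 CPM in the 3 Adar KO progenitor libraries and 6.96, 7.15 and 7.01 in the 3 Adar KO macrophage libraries. NTC progenitors had 4.20, 3.42 and 4.28, and NTC macrophages 1 and 3 had 5.73 and 5.67. The Adar KO groups do not overlap, and Adar rose by 2.76 (SE 0.19, adjusted p = 1.26e-07), a 6.79-fold difference. The change in NTC cells was 1.73, and the difference of the changes, 1.03 (SE 0.29, adjusted p = 0.0355), was under the size limit. A transcript level does not show whether the reading frame is disrupted, so these values say nothing of the protein.

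The macrophage libraries carry the markers of their label. The 6 macrophage markers (among them Csf1r, the M-CSF receptor, and Cd68, a lysosomal glycoprotein) summed to 352, 375 and 343 CPM in the Adar KO progenitors, where Cd14 was the most abundant, and to 6920, 7700 and 7550 CPM in the Adar KO macrophages, where Cd68 was. The 6 myeloid progenitor markers summed to 18200, 12400 and 12100 CPM in the progenitors, most of it Mpo, and to 9.99, 3.15 and 4.14 CPM in the macrophages, where Kit was at 0 in each library. Most of the macrophage sum was Cd34, at 9.34, 2.86 and 3.44 CPM. Cd34 rose by 2.36, under the limit in other settings given below, while the 5 other markers fell. The sums of either list do not overlap between the groups. Fewer cells of a type and less RNA per cell cannot be told apart in these bulk libraries.

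**Figure D1:**
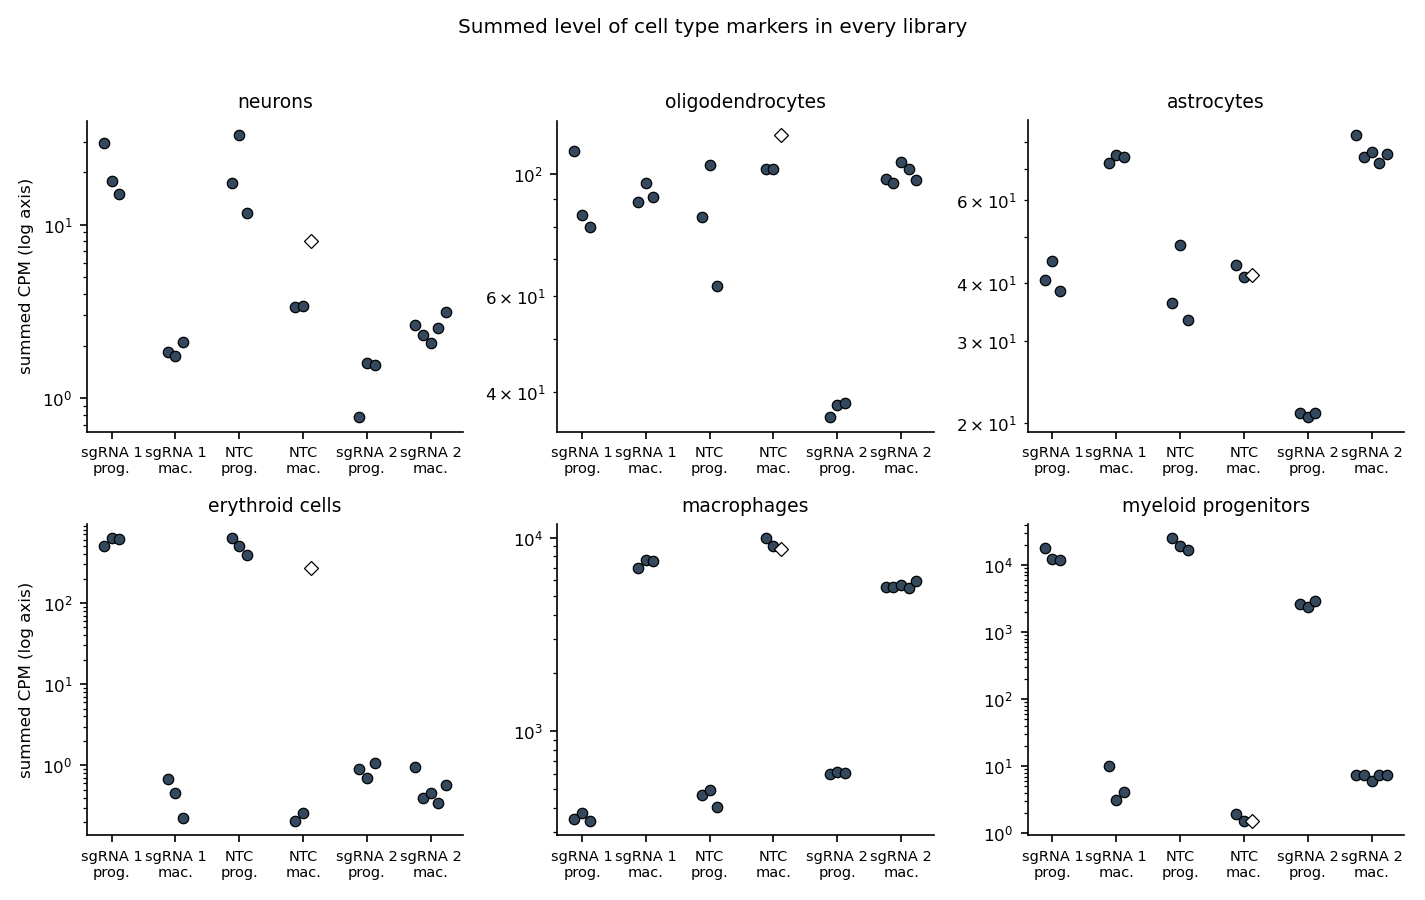
Summed CPM (log axis) of 6 marker lists in each library of 6 groups, with points for libraries and an open diamond for NTC macrophage replicate 2, which stands in its own normalization set. Macrophage markers sum to at least 6920 CPM in the Adar KO sgRNA 1 macrophages and to at most 375 CPM in their progenitors, while erythroid markers sum to at least 507 CPM in those progenitors and to at most 0.674 CPM in the macrophages.

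The progenitor libraries also hold RNA of brain and blood. The 14 neuron markers summed to 29.6, 17.9 and 15.0 CPM in the Adar KO progenitors, with Snap25 (a synaptic fusion protein) the most abundant and Slc17a7 and Thy1 at 0 in replicates 1 and 3, against 1.84, 1.74 and 2.09 CPM in the macrophages, where Syp led and Slc17a7, Nefl and Thy1 were at 0 in each. The 9 oligodendrocyte markers summed to 110, 84.2 and 80.2 CPM in the progenitors, led by Mbp, and to 89.1, 96.3 and 91.0 CPM in the macrophages, led by Cnp, where Mog, Olig1, Olig2 and Cldn11 were at 0 in each. The 9 astrocyte markers summed to 40.4, 44.4 and 38.3 CPM against 72.1, 74.9 and 74.1 CPM, led by Aldoc in both groups, with Aqp4, Gja1 and Sparcl1 at 0 in each macrophage library. So the lists that hold the lineage markers at 0 in macrophages still have a sum there from genes such as Cnp and Aldoc that other cells express as well. The 7 brain endothelium markers summed to 38.5, 32.2 and 35.0 CPM in the progenitors and to 134, 96.3 and 97.4 CPM in the macrophages, led by Flt1 (a VEGF receptor) in both, with Cldn5 and Slco1a4 at 0 in each macrophage library. The 5 erythroid markers summed to 507, 629 and 607 CPM in the progenitors, led by Hbb-bs, and to 0.674, 0.461 and 0.226 CPM in the macrophages, where Hbb-bt was at 0 in each.

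NTC progenitors had 17.3, 33.0 and 11.6 CPM for neurons and 630, 503 and 389 CPM for erythroid cells. The sgRNA 2 progenitors, of another normalization set, had 0.772, 1.59 and 1.54 CPM for neurons and 0.902, 0.702 and 1.06 CPM for erythroid cells. In the sgRNA 1 comparison the hemoglobin genes Hbb-bs and Hba-a1 fell by 11.41 and 9.87, and Hba-a2, at 0 in each macrophage library, was at least 3520-fold lower. The counts of lower genes in this report include them. Of the 39 brain list genes, 23 were tested, and 14 of them are among the lower genes and 1 among the higher ones. How much of the lower set comes from other cells was not tested gene by gene, but 141 of its genes were at 1 CPM or less in every sgRNA 2 progenitor library.

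Markers of other blood lineages differed in level. The 6 neutrophil markers summed to 85.1, 73.4 and 69.7 CPM in the progenitors, led by Mmp8, and to 209, 169 and 159 CPM in the macrophages, led by Csf3r, which macrophages express too, with Stfa2l1 at 0 in each. The 5 mast cell and basophil markers summed to 5.68, 4.24 and 4.36 CPM, led by Ms4a2, against 0.164, 0.0316 and 0.0383 CPM. The 5 dendritic cell markers summed to at most 1.25 CPM in the progenitors and 1.64 CPM in the macrophages, with Clec9a, Cd209a and Ccr7 at 0 throughout. The 6 T cell markers reached at most 2.33 CPM, the 5 B cell markers 1.11 CPM and the 4 NK cell markers 0.0455 CPM in any of these 6 libraries. The 6 microglia markers summed to 93.1, 72.4 and 66.8 CPM in the progenitors and 152, 116 and 138 CPM in the macrophages, led by Tmem119 in both groups. Their part in the results below was not tested.

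Between progenitors and macrophages, 1293 of 11119 tested genes (11.6%) rose and 1126 (10.1%) fell in the Adar KO cells. The higher set holds interferon-stimulated genes, lysosomal hydrolases, phagocyte receptors and Ccnd1, and the lower set holds granule proteases, progenitor transcription factors, nucleolar genes and the genes of mitosis. The median log2FC over all tested genes was -0.06, with quartiles at -0.95 and 0.88. The 3 libraries of each group did not overlap for 8569 of the tested genes (77.1%). Among the higher genes, 47 were at 0 in every progenitor library, and 67 of the lower ones were at 0 in every macrophage library, so their folds are lower limits set by a floor of 3 counts over the group. The floor covers counting error only, while the SEs are taken from the spread between libraries. Both directions together make 2419 genes (21.8%), and with a log2FC limit of 1 in place of 2 they make 5077 (45.7%), of which 2480 are higher (22.3%) and 2597 lower (23.4%).

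The 2 stages differ in how RNA is spread over genes. The 10 most abundant genes took 7.74, 6.69 and 6.72% of the CPM of the progenitor libraries and 24.8, 28 and 26.9% of the macrophage libraries. Ftl1, the ferritin light chain, took 1.88% (SD 0.272, n = 3) and then 6.57% (SD 0.295, n = 3). In macrophages it was followed by Lyz2 (lysozyme) at 5.20%, Fth1 (ferritin heavy chain) at 3.37%, Ctsd (cathepsin D) at 2.98% and Psap (prosaposin) at 2.01%, and in progenitors by Mpo (myeloperoxidase) at 1.72%. CPM sums, in units of 1 M, lay between 0.757 and 0.815 in progenitors and between 1.17 and 1.27 in macrophages. With each library scaled to its own total, an alternative chosen after seeing the data, the median of all genes moved to -0.68, 925 genes rose and 1913 fell, and the higher genes went from 53.5% to 32.6% of those called.

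**Figure D2:**
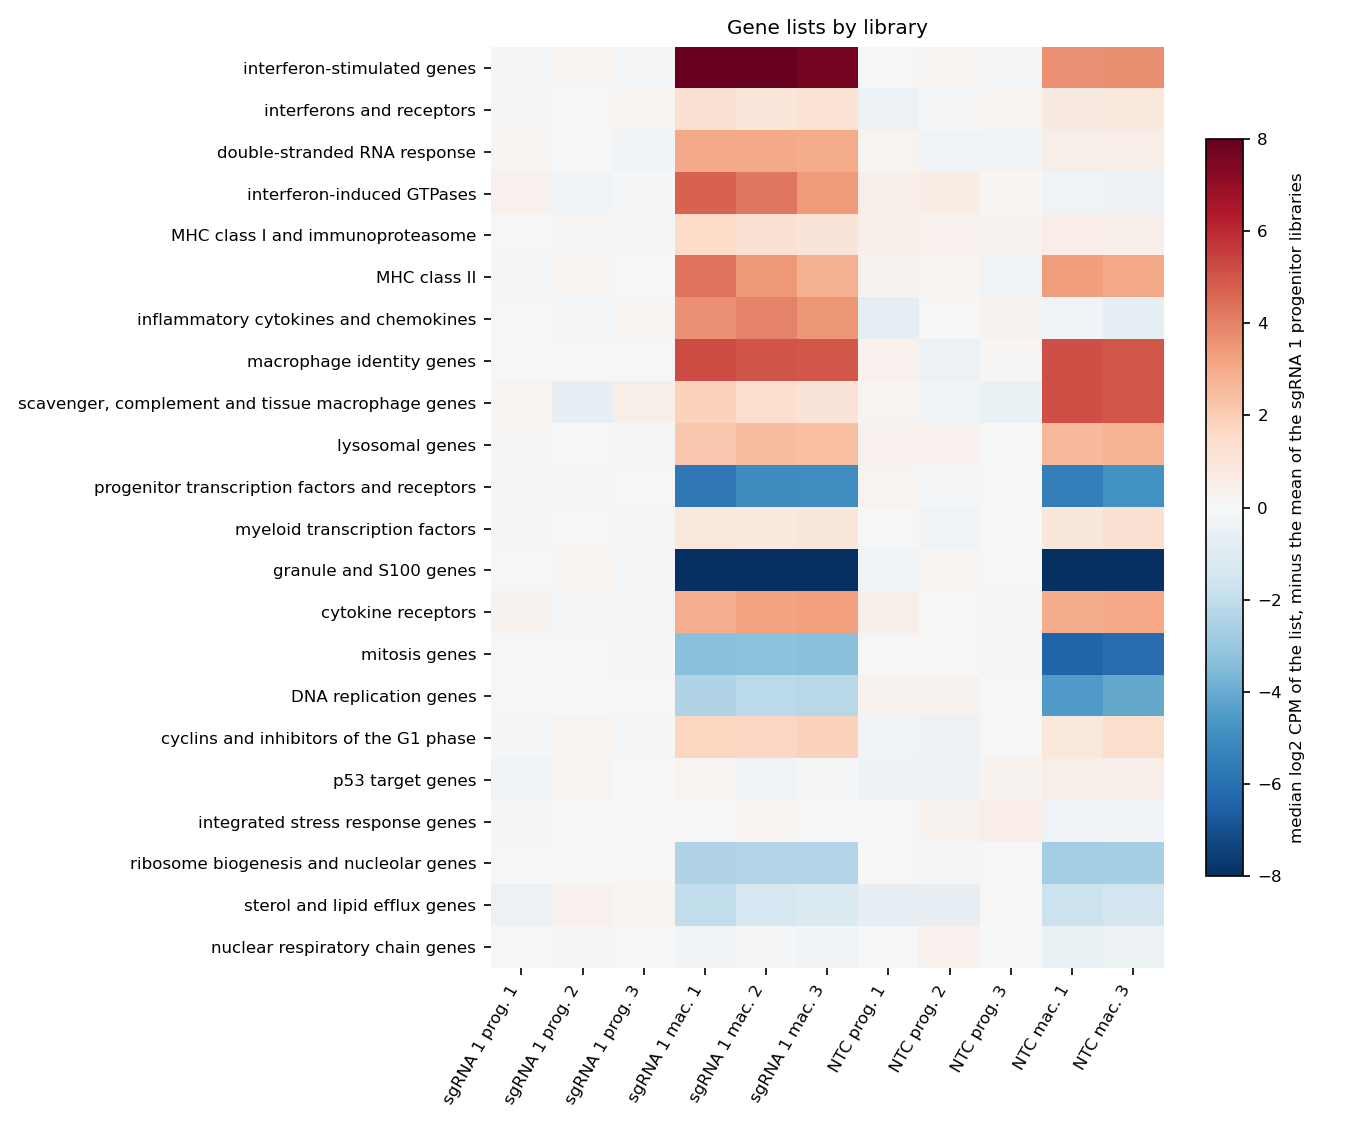
Median log2 CPM of 22 gene lists in each of 11 libraries, minus the mean of the Adar KO sgRNA 1 progenitors, on a colour scale that saturates at 8 in either direction. The interferon-stimulated genes stand out in the 3 Adar KO macrophage libraries, and the mitosis genes are lower in both macrophage groups, more so in NTC.

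Interferon-stimulated genes made the largest rises. Of the 20 listed, 20 were tested, 19 rose and 0 fell, with a median log2FC of 8.26 beside -0.06 for all genes. The list was chosen with the study's results known, so the count is not independent evidence of its direction. The exception was Cxcl10, a chemokine, at 1.16. The 4 members described next are shown in full because they differ in role: a ubiquitin-like protein and its protease, an RNA-binding effector and a transcription factor.

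Isg15, the ubiquitin-like modifier, was at 0.38, 0.55 and 0.46 log2 CPM in the Adar KO progenitors and at 8.79, 8.19 and 7.23 in the macrophages. NTC macrophages had 3.50 and 3.25. It rose by 7.61 (SE 0.32, adjusted p = 2.50e-09). Every Adar KO macrophage library is above every NTC macrophage library, and the Adar KO progenitors lie near the NTC progenitors, which had 0.52, 0.94 and 0.39. Ifit3, an RNA-binding effector, went from -1.15, -1.68 and -1.82 to 11.36, 11.06 and 10.02. That is a log2FC of 12.36 (SE 0.37, adjusted p = 2.22e-10), the largest of the list. In each of these genes macrophage replicate 3 was the lowest of the 3 and still far above every progenitor library.

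Usp18, the protease that removes ISG15, went from -1.65, -1.22 and -1.89 log2 CPM to 9.68, 9.38 and 8.59, a log2FC of 10.80 (SE 0.29). Irf7, the transcription factor that amplifies type I interferon, went from 0.25, 0.68 and -0.35 to 10.01, 10.15 and 9.44, a log2FC of 9.67 (SE 0.26). The progenitor and macrophage libraries do not overlap for either gene, and both were low before maturation. Ifit1 rose by 11.28, Rsad2 (viperin) by 9.84, and Oas2 and Oas3 (oligoadenylate synthetases) by 9.39 and 9.33. Outside the list, Oasl2, Ifi27l2a and Slfn1, each induced by interferon, rose by 11.25, 10.51 and 10.12.

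The same 20 genes had a median change of 2.58 in NTC cells, where 11 rose and Cxcl10 fell by 2.21. The difference of the changes, Adar KO minus NTC, passed the test in the higher direction for 20 of 20, with a median of 4.57 beside 0.08 for all genes. It was 7.65 for Ifi44, 7.24 for Rsad2, 7.03 for Ifit1, 6.65 for Usp18 (SE 0.44, adjusted p = 5.11e-06), 5.69 for Ifit3 and 4.85 for Isg15. Ifit3 rose by 6.67 and Irf7 by 4.52 in NTC cells. The comparisons of Adar KO cells, NTC cells and their difference use some of the same libraries, so they are set side by side and not counted against each other.

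**Figure D3:**
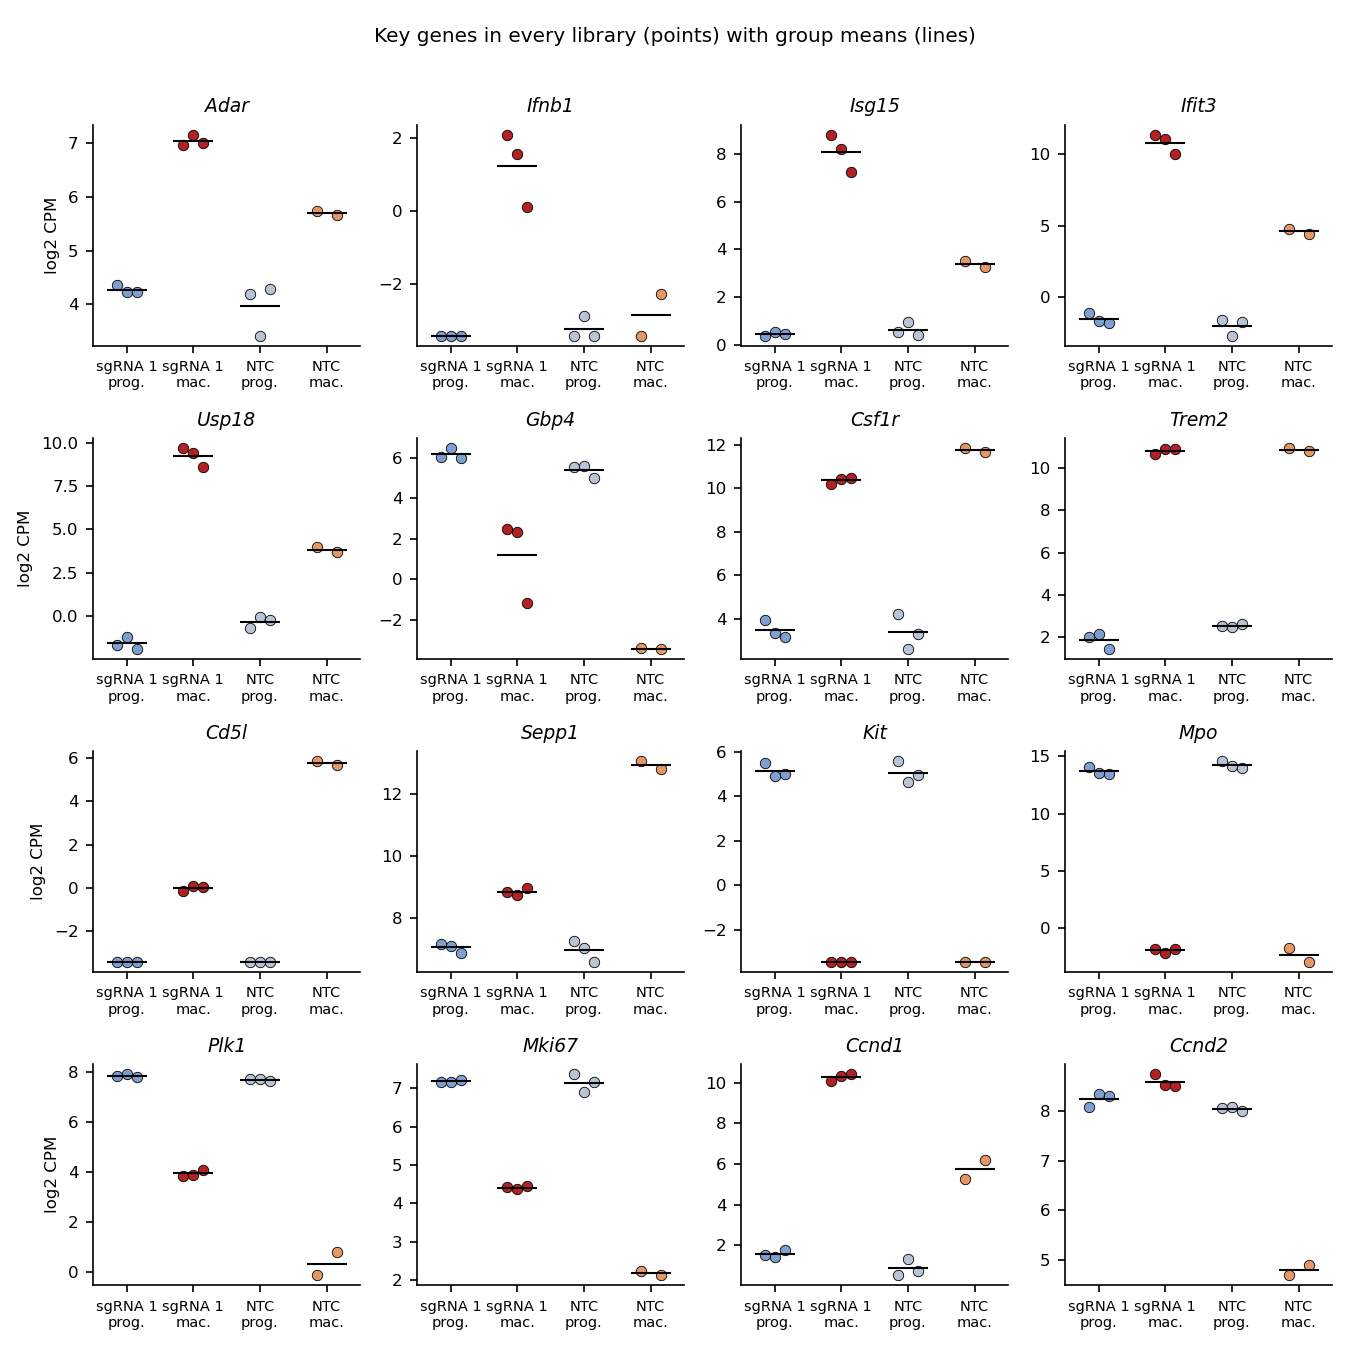
Log2 CPM of 16 genes in Adar KO sgRNA 1 and NTC progenitors and macrophages, with a point for each library and a line for each group mean. Ifit3 reaches 10.02 or more in each Adar KO macrophage library and 4.76 at most in NTC macrophages, while Mpo is below 0 in each macrophage library.

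The sequences in front of 5 of these genes are shown because the genes rose together. Each is the 250 bases before the start, from RefSeq on build GRCm38.p6, chosen among the matched members because it holds the searched letters of the interferon-stimulated response element, GAAA, then 2 bases of any kind, then GAAA, on either strand, which are in capitals. The Isg15 window (chr4:156200819-156201068, minus strand) has 3 overlapping matches, which run together.
Isg15: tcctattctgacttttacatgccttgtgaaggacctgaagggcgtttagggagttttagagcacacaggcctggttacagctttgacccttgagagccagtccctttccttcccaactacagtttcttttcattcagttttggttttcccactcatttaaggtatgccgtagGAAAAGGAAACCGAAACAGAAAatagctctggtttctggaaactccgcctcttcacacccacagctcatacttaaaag
Ifit1: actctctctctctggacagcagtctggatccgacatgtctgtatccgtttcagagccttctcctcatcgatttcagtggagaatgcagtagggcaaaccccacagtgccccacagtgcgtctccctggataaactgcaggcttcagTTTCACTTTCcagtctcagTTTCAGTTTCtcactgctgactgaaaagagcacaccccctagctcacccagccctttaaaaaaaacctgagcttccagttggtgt
Ifit3: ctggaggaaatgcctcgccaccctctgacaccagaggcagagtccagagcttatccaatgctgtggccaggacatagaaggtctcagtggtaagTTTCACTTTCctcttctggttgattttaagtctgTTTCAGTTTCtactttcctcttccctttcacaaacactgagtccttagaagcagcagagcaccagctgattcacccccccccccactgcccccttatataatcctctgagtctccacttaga
Rsad2: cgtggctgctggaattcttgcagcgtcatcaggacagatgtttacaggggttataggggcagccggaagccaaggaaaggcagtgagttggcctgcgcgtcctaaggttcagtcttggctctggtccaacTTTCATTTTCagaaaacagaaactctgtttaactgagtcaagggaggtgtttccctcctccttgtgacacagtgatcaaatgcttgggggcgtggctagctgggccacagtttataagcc
Oas3: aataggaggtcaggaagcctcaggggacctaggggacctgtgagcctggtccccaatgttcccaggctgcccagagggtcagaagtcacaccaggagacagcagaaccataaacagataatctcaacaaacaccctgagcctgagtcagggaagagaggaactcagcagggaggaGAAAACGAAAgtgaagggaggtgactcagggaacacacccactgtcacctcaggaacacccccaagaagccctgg
The other windows are Ifit1 (chr19:34640639-34640888, plus strand, 2 matches), Ifit3 (chr19:34583279-34583528, plus strand, 2 matches), Rsad2 (chr12:26456453-26456702, minus strand, 1 match) and Oas3 (chr5:120777660-120777909, minus strand, 1 match). The matches lie between 66 and 156 bases before the start. Of 27018 genes with a promoter of this length, 821 hold the letters (3.04%). For the interferon-stimulated list no share is given, because only 15 of its 20 members (75%) have a promoter in the reference and a share was computed only from 80% on. Of the 11 interferon and receptor genes 4 hold it (36.4%), and of 12 matched MHC class I genes 2 do (16.7%), while in the 6 other gene lists with a share it lay between 0 and 6.25%. A match is a description of the letters and not evidence of binding.

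Among interferons and their receptors, 5 of 11 genes were tested and 2 rose, Ifnb1 among them. Ifnb1, interferon beta, had no read in any Adar KO progenitor library and was at 2.08, 1.55 and 0.09 log2 CPM in the macrophages. It was at least 67.6-fold higher in macrophages. It passed the filter through these 3 libraries alone, so its calls are a description of its levels and its p-values are not given. NTC macrophages had -3.43 and -2.28, and the difference of the changes was 4.27. So reads of Ifnb1 were seen in each Adar KO macrophage library, at a level low in all 3. Ifna2, Ifna4 and Ifna5, also at 0 in every progenitor library and under the limit for testing, had values up to 0.55 in the macrophages. Ifngr2, a subunit of the interferon gamma receptor, rose by 2.19, or 1.57 when scaled to the library total. Ifnar1 and Ifnar2, the type I receptor, had log2FC of 1.08 and 0.17, and neither was called in the difference from NTC (-0.66 and 0.04). The median of the 5 tested genes went from 1.08 to 0.45 when scaled to the library total.

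Genes that sense or answer double-stranded RNA did not move together. Of 17 listed, Adar among them, 16 were tested, 9 rose and 2 fell, with a median of 3.26. The cytosolic sensors Ddx58 (RIG-I), Ifih1 (MDA5) and Dhx58 (LGP2) rose by 4.73, 3.75 and 5.49, the endosomal receptor Tlr3 by 4.15, and Zbp1, which binds Z-form nucleic acid, by 9.18. The adaptor Mavs and the kinase Tbk1 had log2FC of 1.67 and 1.13, and Eif2ak2 (PKR) had 1.57. Irf3 fell by 2.60 and Ripk3, a kinase of necroptosis, by 2.36. Compared with NTC, 9 of the 16 passed, in the higher direction for each, with a median of 2.62. Of those that passed, Oas1a, Oas2, Oas3, Zbp1 and Ifih1 are also in the interferon-stimulated list. For Mlkl, the effector of necroptosis, Adar KO progenitors had 5.81, 5.92 and 5.68 log2 CPM and the macrophages 6.00, 6.15 and 5.49. NTC macrophages had 3.27 and 2.87, so that the gene had a log2FC of 0.07 in Adar KO cells (-0.55 for Mlkl scaled to the library total) and fell by 2.93 in NTC cells, a difference of 3.01 (adjusted p = 3.20e-05).

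The interferon-induced GTPases had higher log2FC than in NTC cells. Of 17 listed, 16 were tested, 13 rose and 1 fell in Adar KO cells (median 3.99), while in NTC cells 1 rose and 5 fell (median -0.46). The difference passed for 16 of the 16, Gbp4 the least firmly, with a median of 4.58. Mx2 rose by 8.37, Mx1 by 6.38, Gbp2 by 5.60 and Irgm1 by 4.32.

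Gbp4 ran against its family. Its level was 6.05, 6.47 and 5.99 log2 CPM in Adar KO progenitors and 2.46, 2.34 and -1.19 in the macrophages. In NTC macrophages it was -3.41 and -3.43. It fell by 4.97 in Adar KO cells (adjusted p = 8.57e-05) and by 8.80 in NTC cells, with a difference of 3.83 (SE 1.11, adjusted p = 0.0426). The Adar KO macrophages spread widely, replicate 3 being the lowest, and all 3 lie between the progenitors and the NTC macrophages. The call of that difference was lost under most other settings, with an adjusted p of 0.0978 with quantile normalization, 0.0503 with array weights and 0.0814 with no filter, and it held with a replicate block (0.0435) and with median centring (0.0455). Gbp7 and Gbp9 had log2FC of 0.82 and -0.70 and were not called, and in NTC cells they fell by 3.90 and 4.50.

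MHC class I genes and the immunoproteasome, which cut and present peptides, had 14 of 14 tested and 8 higher, with a median of 2.81. H2-T23 rose by 5.83, H2-D1 by 5.04, H2-K1 by 4.88 and B2m (beta 2 microglobulin) by 4.40. Against NTC, 7 genes passed, with a median of 1.96, the highest being H2-Q7 at 3.76. That of B2m, 2.01, lay at the limit and was under it in several other settings, as with a replicate block (1.97) or quantile normalization (1.39), and that of H2-D1 went from 2.65 to 1.58 without NTC macrophage replicate 1. Tap1, the peptide transporter, rose by 3.09 and Tap2 had 0.80. Of 7 MHC class II genes 3 were tested, and Cd74 (the invariant chain) and H2-DMb1 rose by 3.57 and 2.46 (H2-DMb1 by 1.83 when scaled to the library total), with differences from NTC of -0.49 and 0.96 that were not called. For the proteasome subunits, Psmb8 rose by 2.53 (1.90 when scaled to the library total, under the limit) and Psmb9 and Psmb10 had 1.90 and 0.61. The change of Psmb10 turned negative when scaled to the library total.

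Chemokines and cytokines rose unevenly. Of 19 listed, 11 were tested and 8 rose (median 3.43). Ccl5, which draws T cells and monocytes, was at -1.89, -2.54 and -1.28 log2 CPM in Adar KO progenitors and at 7.73, 7.89 and 6.20 in the macrophages, a log2FC of 9.18 (SE 0.50, adjusted p = 1.68e-08). NTC macrophages had 1.57 and 0.88, all below the Adar KO macrophages. Ccl2 and Ccl7, which draw monocytes, rose by 8.59 and 6.63, Tnf by 3.55 and Il1rn, the interleukin 1 receptor antagonist, by 2.67. Against NTC, 6 of the 11 passed, all higher, though Il1rn had an adjusted p of 0.0614 without NTC macrophage replicate 1. Ccl2 and Cxcl10, among those that passed, are also in the interferon-stimulated list. Il6, Il12b, Il10, Il1b, Nos2 and Cxcl1 were too low to be tested. Ccl4 rose by 2.03 (adjusted p = 0.0111), just past the limit, with 1.88 under quantile normalization, 1.40 when scaled to the library total and 1.39 without progenitor replicate 1, and had a difference from NTC of 2.26 that did not pass (adjusted p = 0.132).

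**Figure D4:**
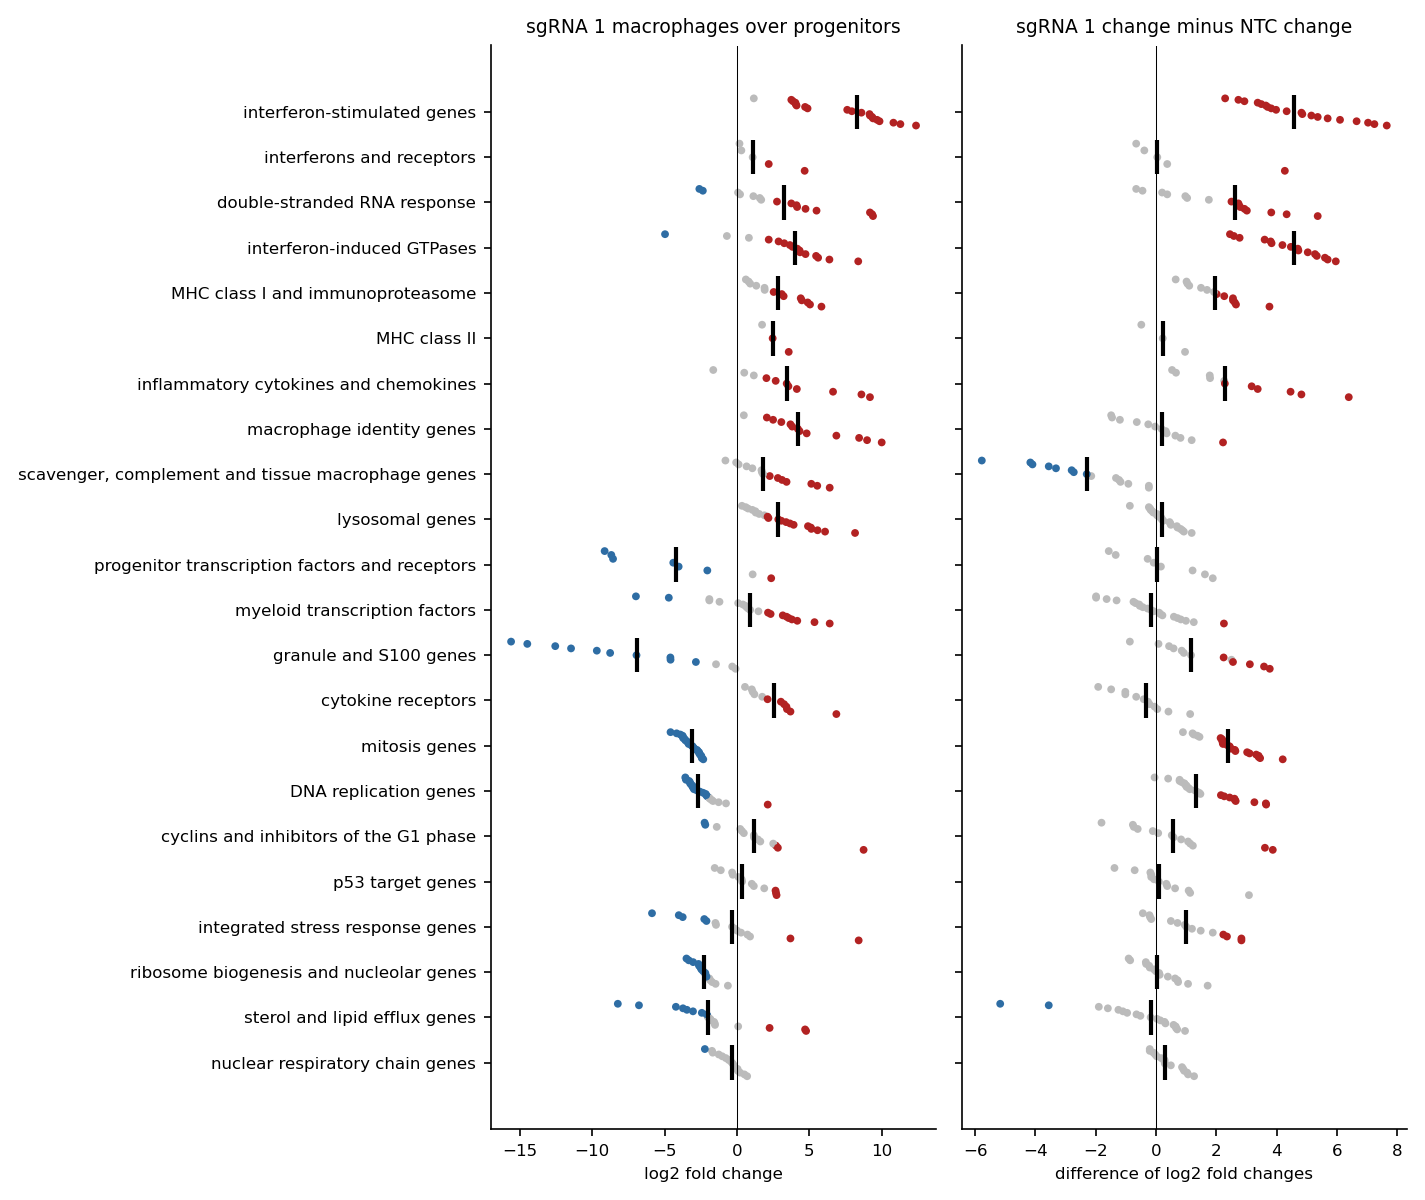
Log2FC of each tested gene of the lists in Adar KO sgRNA 1 cells, macrophages over progenitors, and the same change minus that of NTC cells, with called genes in red (higher) and blue (lower), others in grey and a black line at each list median. Macrophage identity genes are high in the change (median 4.20) and near 0 in the difference (median 0.18), whereas the scavenger list lies below 0 in the difference (median -2.30).

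Most genes of macrophage identity rose in Adar KO and in NTC cells. Of 13 listed, 13 were tested and 12 rose, with a median of 4.20, beside 11 and a median of 4.15 in NTC cells. Csf1r was at 3.97, 3.34 and 3.20 log2 CPM in the Adar KO progenitors and at 10.21, 10.44 and 10.46 in the macrophages, a log2FC of 6.86 (SE 0.32). Trem2, a lipid receptor, went from 1.98, 2.12 and 1.44 to 10.65, 10.91 and 10.91, a log2FC of 8.98 (SE 0.16). The groups do not overlap for either gene. Msr1, a scavenger receptor, rose by 9.99, Cx3cr1 (the fractalkine receptor) by 8.43, Cd68 by 4.81, Itgam (CD11b) by 4.32 and Emr1 (F4/80) by 3.81. Tlr4 had a log2FC of 0.47, which turned to -0.16 when scaled to the library total. Msr1 passed in the difference from NTC, at 2.22 (adjusted p = 0.00848) but 1.83 with quantile normalization, and for Csf1r it was -1.49 (adjusted p = 0.064). For Cd14 the difference was 1.18 (adjusted p = 0.000809), under the size limit. With a limit of 1 in place of 2, the difference was called higher for 2 of the 13 and lower for 1. Tyrobp, the adaptor of TREM2, had no read in progenitors and 5.94, 8.54 and 7.13 log2 CPM in macrophages, at least 4860-fold higher. Both sgRNA 2 groups had no read for Tyrobp at their median, which limits what its level here says.

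Lysosomal genes followed the same course. Of 22 listed, 21 were tested, 13 rose and 0 fell (median 2.85, and 2.48 in NTC cells). Ctss, cathepsin S, rose by 8.15, Ctsb by 6.08, Lipa (acid lipase) by 5.56, Ctsd by 5.13 and Npc2, a cholesterol carrier, by 3.91. In the difference from NTC 0 of 21 passed in limma at an adjusted p below 0.05 and the size limit, with values between -0.87 and 1.18. By the same limits 469 of all 11119 genes passed (4.22%), so a count of 0 is near that share. Psap rose by 5.80 and Lyz2 by 8.00. Lyz1, the other lysozyme, Emp1 (a membrane protein) and Sirpb1a (a signal-regulatory receptor) rose by 10.61, 10.19 and 10.03.

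Many scavenger, complement and tissue macrophage genes lagged behind NTC. Of 20 listed, 15 were tested and 7 rose in Adar KO cells (median 1.80, or 1.17 when scaled to the library total), while 14 of the 15 rose in NTC cells (median 5.06). The difference passed for 8, lower in each, with a median of -2.30. Sepp1, the selenium carrier selenoprotein P, was at 7.16, 7.09 and 6.86 log2 CPM in Adar KO progenitors and at 8.81, 8.74 and 8.95 in the macrophages. NTC macrophages had 13.04 and 12.78. Its change of 1.80 in Adar KO cells was under the limit of 2, and the difference from NTC was -4.17 (SE 0.24, adjusted p = 4.32e-06). All 3 Adar KO macrophage libraries lie between the progenitors and the NTC macrophages.

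Cd5l, a secreted scavenger receptor of tissue macrophages, had no read in progenitors and reached -0.15, 0.09 and 0.04 log2 CPM in the Adar KO macrophages, at least 23-fold higher. NTC macrophages had 5.86 and 5.68, and the difference was -5.78 (SE 0.42, adjusted p = 1.02e-05). Mrc1, the mannose receptor, was at 6.44, 5.94 and 5.98 in Adar KO progenitors and at 6.30, 5.90 and 6.49 in the macrophages, groups that overlap. It rose by 3.67 in NTC cells, a difference of -3.56 (adjusted p = 0.000435). C1qa and C1qb, of complement C1q, had differences of -2.80 and -2.73, and Slco2b1, an organic anion carrier, -4.10. Gpnmb, Cd36 and Lpl, which belong to lipid handling, rose by 5.54, 6.40 and 5.13 and had differences of -0.24, -1.18 and -0.24 that did not pass.

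Among transcription factors of the myeloid lineage, 21 of 24 were tested, 9 rose and 2 fell, beside 11 and 3 in NTC cells. The median was 2.22 in NTC cells, and 0.91 in Adar KO cells, or 0.29 when scaled to the library total. Maf, linked to macrophage maturation, rose by 6.40, Irf8 by 4.16, Mitf by 3.79 and Irf5 by 3.16. Gfi1, a factor of granulocyte fate, fell by 6.98 and Tfec by 4.71. Spi1 (PU.1) and Cebpb had 0.77 and 0.41. Tfec passed in the difference from NTC, at 2.25, or 1.92 without Adar KO macrophage replicate 1. For Maf it was -1.99 (adjusted p = 0.0196), just under the size limit, and it passed at -2.16 with quantile normalization, -2.09 with median centring and -2.47 with a pseudocount of 1. Of 12 cytokine receptors, 12 were tested and 7 rose (median 2.57), where 11.6% of all genes rose. Csf3r rose by 3.45, Tgfbr2 by 3.25 and Tgfbr1 by 3.03, and the subunits Csf2ra and Csf2rb of the GM-CSF receptor had 1.74 and 1.02. In NTC cells 8 of the 12 rose (median 2.92). In the difference from NTC 0 of the 12 were called, where 4.22% of all genes were, so a count of 0 is near that share.

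Genes of the progenitor state fell. Of 16 transcription factors and receptors listed, 8 were tested, 6 fell and Cd34 rose by 2.36, or 1.85 without Adar KO macrophage replicate 1 and 1.77 when scaled to the library total (list median -4.22, and -4.24 in NTC cells). Kit, the stem cell factor receptor, was at 5.50, 4.90 and 5.00 log2 CPM in Adar KO progenitors and had no read in any macrophage library, which makes it at least 1050-fold lower. Mycn was at least 1550-fold lower on the same ground. Myb fell by 8.68, Myc by 4.40 and Flt3, a cytokine receptor, by 4.03. Hoxb8 was at 1.13, 1.09 and 1.50 in the progenitors and at -2.62, 0.27 and -0.08 in the macrophages. It fell by 2.05 (SE 0.73, adjusted p = 0.0243), with all macrophage libraries below all progenitor libraries and replicate 1 far below the others. The Hoxb8 call was lost without macrophage replicate 1, at -1.15 (adjusted p = 0.0901), without progenitor replicate 3, at -1.92, with a pseudocount of 1, at -1.02, and with array weights, at -1.31. The table does not separate the transgene from the mouse gene. In limma 0 of the 8 were called in the difference from NTC, where 4.22% of all genes were, so a count of 0 is near that share.

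Among the gene lists, the marker lists of cell types aside, granule genes had the lowest median log2FC. Of 14 listed, 13 were tested, 10 fell and 0 rose. The median was -6.94, or -8.40 with the 2 genes at 0 in macrophages set to their limits. Mpo, the enzyme that makes hypochlorous acid, was at 14.09, 13.52 and 13.50 log2 CPM in Adar KO progenitors and at -1.76, -2.18 and -1.76 in the macrophages, a change of -15.60 (SE 0.29, adjusted p = 1.05e-11). Ms4a3, a marker of granulocyte and monocyte progenitors, fell by 14.48, Ctsg (cathepsin G) by 12.55, Elane (neutrophil elastase) by 11.46 and Prtn3 (proteinase 3) by 9.68. Muc13, a membrane mucin, fell by 11.48, and Gria3, a glutamate receptor subunit, by 9.60. Gria3 is also a neuronal gene, and how much of its progenitor level comes from other cells was not tested.

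For some granule and S100 genes the change differed from that in NTC cells. Of 13, 5 passed in the difference from NTC, higher in each. S100a8, a subunit of calprotectin, was at 6.50, 6.73 and 6.44 log2 CPM in Adar KO progenitors and at 6.04, 6.33 and 6.32 in the macrophages, against 3.89 and 3.40 in NTC macrophages. Its change was -0.33 in Adar KO cells and -2.88 in NTC cells, a difference of 2.55 (adjusted p = 4.70e-05). Chil3, a chitinase-like protein, had a change of -1.45 beside -5.22, a difference of 3.77. S100a9, the partner of S100a8, had no read in any Adar KO macrophage library and was at least 337-fold lower, with -3.43 and -2.96 in NTC macrophages. A value of 0 reads in this table was not checked against the reads. Prtn3 passed with a difference of 2.24, which went to 1.71 without NTC macrophage replicate 3, to 1.70 with quantile normalization and to 1.24 with a pseudocount of 1, each under the limit.

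The genes of mitosis fell in Adar KO cells, but less than in NTC cells. Of 24 listed, 24 were tested and 24 fell, with a median of -3.11 beside -5.53 in NTC cells. Plk1, the polo-like kinase, was at 7.84, 7.92 and 7.82 log2 CPM in Adar KO progenitors and at 3.86, 3.89 and 4.08 in the macrophages. NTC macrophages had -0.13 and 0.79. Plk1 fell by 3.92 (SE 0.19, adjusted p = 5.76e-09), and the difference from NTC was 3.45 (SE 0.28, adjusted p = 1.56e-05). Mki67, the proliferation marker Ki-67, went from 7.17, 7.17 and 7.21 to 4.42, 4.37 and 4.44, with 2.23 and 2.13 in NTC macrophages. It fell by 2.77 (SE 0.12), and the difference was 2.19 (SE 0.18, adjusted p = 1.70e-05), or 1.99 with a pseudocount of 1. In both genes the Adar KO macrophages form a tight group between progenitors and NTC macrophages. The difference passed for 19 of the 24, higher in each, with a median of 2.40. It was 4.20 for Cdc25c, a phosphatase that starts mitosis (1.88 with a pseudocount of 1, under the limit), and 3.40 for Kif11, a spindle motor.

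The sequences in front of 3 mitosis genes are shown because these genes fell together. They are the 250 bases before the start, from RefSeq on build GRCm38.p6, chosen because they hold the letters of the cell cycle genes homology region, TTTGAA on either strand, in capitals.
Cdc20: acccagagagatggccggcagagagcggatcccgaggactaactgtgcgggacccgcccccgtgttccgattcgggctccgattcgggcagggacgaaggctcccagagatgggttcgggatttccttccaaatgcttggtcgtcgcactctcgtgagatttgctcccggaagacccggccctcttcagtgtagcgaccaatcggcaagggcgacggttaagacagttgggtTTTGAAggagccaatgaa
Kif11: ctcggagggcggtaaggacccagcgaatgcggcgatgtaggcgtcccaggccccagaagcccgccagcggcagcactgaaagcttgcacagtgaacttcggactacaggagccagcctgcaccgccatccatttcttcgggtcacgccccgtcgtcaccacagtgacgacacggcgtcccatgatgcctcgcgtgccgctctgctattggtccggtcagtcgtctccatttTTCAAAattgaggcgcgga
Ube2c: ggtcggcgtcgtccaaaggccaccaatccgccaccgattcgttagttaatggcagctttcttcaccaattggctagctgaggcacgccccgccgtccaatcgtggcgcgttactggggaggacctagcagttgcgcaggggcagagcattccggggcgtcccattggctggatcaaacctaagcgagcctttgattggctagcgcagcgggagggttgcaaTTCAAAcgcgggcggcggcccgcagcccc
They lie at chr4:118437344-118437593 on the minus strand (Cdc20, an activator of the anaphase-promoting complex), chr19:37376132-37376381 on the plus strand (Kif11) and chr2:164769679-164769928 on the plus strand (Ube2c, a ubiquitin-conjugating enzyme). Each has 1 match, 18, 19 and 29 bases before the start. The letters are common: 4397 of 27018 promoters hold them (16.3%). A share for the mitosis list is not given, since 18 of its 24 members (75%) have a promoter in the reference. The 3 genes fell by 4.17, 3.34 and 3.72, and their differences from NTC were 2.21 (for Cdc20 1.69 without NTC macrophage replicate 1 and 1.89 with a pseudocount of 1), 3.40 and 3.10.

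Genes of DNA replication behaved likewise. Of 24 listed, 24 were tested, 17 fell and 1 rose (median -2.67, and -4.16 in NTC cells). Rrm2, a subunit of ribonucleotide reductase, fell by 3.25, with 9.30, 9.64 and 9.54 log2 CPM in progenitors and 6.13, 6.35 and 6.26 in Adar KO macrophages, against 2.66 and 2.95 in NTC macrophages. The 3 groups are well apart, and the difference from NTC was 3.64 (SE 0.22, adjusted p = 4.32e-06). Ccne2, cyclin E2, had a change of -1.93 in Adar KO cells and -5.58 in NTC cells, a difference of 3.65. The difference passed for 9 of 24. The subunits Mcm2, Mcm3, Mcm4, Mcm5 and Mcm7 of the replicative helicase fell by 2.16 to 3.57 and had differences under the limit, from 0.78 to 1.08, while the sixth, Mcm6, fell by 3.52 and passed with a difference of 3.26 (adjusted p = 0.00473). E2f1 rose by 2.12, or 1.50 when scaled to the library total.

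Cyclins of the G1 phase differed from one another. Ccnd1, cyclin D1, was at 1.50, 1.41 and 1.76 log2 CPM in Adar KO progenitors and at 10.11, 10.36 and 10.42 in the macrophages. NTC macrophages had 5.28 and 6.20. Ccnd1 rose by 8.74 (SE 0.25, adjusted p = 1.50e-10), a 427-fold difference, and the difference from NTC was 3.87 (SE 0.37, adjusted p = 5.34e-05). Ccnd2, cyclin D2, was at 8.10, 8.36 and 8.31 in Adar KO progenitors and at 8.75, 8.54 and 8.51 in the macrophages, with 4.69 and 4.89 in NTC macrophages. Its change was 0.34 in Adar KO cells (-0.29 when scaled to the library total) and -3.26 in NTC cells, a difference of 3.61 (SE 0.16, adjusted p = 1.07e-06). Thus Ccnd1 is highest in the Adar KO macrophages of the 4 groups, and Ccnd2 in these macrophages is near its progenitor level. Ccnd3 had a change of 1.16, and Ccne1, cyclin E1, which is in the replication list, fell by 3.07. Of 15 genes listed, 14 were tested, 3 rose and 2 fell (median 1.16, or 0.57 when scaled to the library total), and the difference passed for Ccnd1 and Ccnd2. The kinases Cdk4 and Cdk6 fell by 2.19 and 2.24, and the inhibitor Cdkn1a (p21) rose by 2.69.

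Of 15 p53 targets, 13 were tested, 3 rose and 0 fell: Cdkn1a, Fas (2.66) and Trp53inp1 (2.73). That is close to the 21.8% of all genes called in either direction. The list median was 0.35, and it turned to -0.28 when each library was scaled to its total. Of the 13, 0 passed in limma in the difference from NTC, with values between -1.38 and 3.08, beside 4.22% of all genes. Genes of the integrated stress response went both ways, with 15 of 16 tested, 2 higher and 5 lower (median -0.34, or -0.96 when scaled to the library total). Atf3 rose by 8.40 and Ddit3 (CHOP) by 3.69, while Phgdh and Psat1, of serine synthesis, fell by 5.87 and 3.75 and Shmt2 by 4.02. Compared with NTC the test passed for Trib3, Ddit3, Phgdh and Slc7a11, higher in each and 2.83 for Ddit3.

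Most nucleolar genes and genes of ribosome biogenesis fell in both genotypes. Of 16 listed, 16 were tested and 11 fell (median -2.26, and -2.36 in NTC cells). Ncl, nucleolin, fell by 3.03, Npm1 (nucleophosmin) by 2.66 and Nop58, a core protein of small nucleolar particles, by 3.33. Of the 16, 0 passed in limma in the difference from NTC, which lay between -0.91 and 1.71, and 4.22% of all genes passed. With a limit of 1 in place of 2, the difference was called higher for 2 of the 16 and lower for 0. Of 16 nuclear genes of the respiratory chain, 16 were tested and Cyc1, cytochrome c1, fell by 2.22, with a change of -1.96 without macrophage replicate 1 (list median -0.36, or -0.99 when scaled to the library total, and -0.88 in NTC cells), with 0 called in the difference.

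Lipid genes went both ways. Of 20 listed, 19 were tested, 9 fell and 3 rose (median -2.0). Scd1, the stearoyl-CoA desaturase, was at 4.54, 6.43 and 6.56 log2 CPM in Adar KO progenitors and at -2.64, -2.62 and -1.90 in the macrophages, a change of -8.23 (SE 0.56, adjusted p = 1.19e-07). NTC macrophages had 0.62 and 0.64, and the difference was -5.17 (SE 0.85, adjusted p = 0.0019). Progenitor replicate 1 was the lowest of its group and still far above all macrophage libraries. Fdps and Idi1, of cholesterol synthesis, fell by 3.73 and 3.46. The efflux pumps Abca1 and Abcg1 rose by 4.70 and 4.77. Abca1 rose by 8.26 in NTC cells, a difference of -3.56 (adjusted p = 0.00129), and Abcg1 had a difference of -0.52.

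Across all tested genes the change in Adar KO cells exceeded that in NTC cells, by the same limits, for 392 genes (3.53%) and fell short of it for 77 (0.693%). These counts were 261 and 49 with a pseudocount of 1, and the lower count was 44 with genes above 5 CPM alone and 118 with NTC macrophage replicate 2 added and all libraries brought to a common scale. In NTC cells alone 1222 genes rose (11%) and 1394 fell (12.5%), 2616 together (23.5%). With a limit of 1 the difference was called for 1007 genes (9.06%), 746 higher (6.71%) and 261 lower (2.35%), and with the limit of 2 for 469 (4.22%). The change in NTC cells was called at a limit of 1 for 5456 genes (49.1%), 2534 higher (22.8%) and 2922 lower (26.3%). The largest positive difference among genes eligible to be named was that of Ly6a, the surface antigen Sca-1. It was at 1.43, 0.78 and 0.93 log2 CPM in Adar KO progenitors and at 9.08, 7.93 and 7.07 in the macrophages, with 0.23 and -1.37 in NTC macrophages. The Adar KO macrophages stand apart from the other 3 groups, and the difference was 8.55 (SE 0.72, adjusted p = 2.20e-05). Among the 10 largest of these were also Csprs, Pydc3, Trim30d and Ly6i, at 7.41, 6.83, 6.80 and 6.53.

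Plac8 had the next largest positive difference of these genes, by another route. It was at 9.73, 9.60 and 9.35 log2 CPM in Adar KO progenitors and at 8.18, 7.16 and 6.40 in the macrophages, with -0.31 and -0.33 in NTC macrophages. It fell by 2.31 in Adar KO cells and by 10.18 in NTC cells, a difference of 7.87 (SE 0.49, adjusted p = 4.32e-06). Without Adar KO macrophage replicate 3 its change was -1.89, under the limit. The genes whose change fell short of NTC include, beside Scd1 and Sepp1, Zfp36l1 (an mRNA decay factor) at -3.75, Apoc2 (the cofactor of lipoprotein lipase) at -3.69 and Colec12 (a scavenger collectin) at -3.47. Of these, Colec12 had no read in Adar KO progenitors and was at least 1090-fold higher in the macrophages, where it reached 5.35, 5.38 and 5.52 log2 CPM beside 9.13 and 9.11 in NTC macrophages. With each library scaled to its total, the median difference over all genes went from 0.08 to -0.11, and 336 genes exceeded the NTC change and 100 fell short of it.

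A second guide gives the same comparison in libraries that share none with the first. In the sgRNA 2 cells 1265 of 10776 tested genes rose (11.7%) and 826 fell (7.67%), 2091 together (19.4%). With a limit of 1 the call covered 4952 genes (46%), 2500 higher (23.2%) and 2452 lower (22.8%). The 964 genes that rose with both guides are 74.6% of the sgRNA 1 list and 76.2% of the sgRNA 2 list, and the 642 that fell with both are 57.0% and 77.7%. No gene was called in opposite directions. Over 10561 genes tested with both, the correlation of the log2FC was 0.922 (Pearson) and 0.894 (Spearman), given as a description since genes are not independent. Of the lower sgRNA 1 genes, 948 were tested with sgRNA 2 and 941 had the same sign. Of the 20 interferon-stimulated genes, 19 rose with sgRNA 2 (median 7.16), Ifit3 by 9.56 and Isg15 by 7.26. The 2 sets were normalized apart. The marker sums, the 1 CPM limit and the Tyrobp medians above, and the Mpo and Kit medians below, are subject to that. Other levels are not compared between them.

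**Figure D5:**
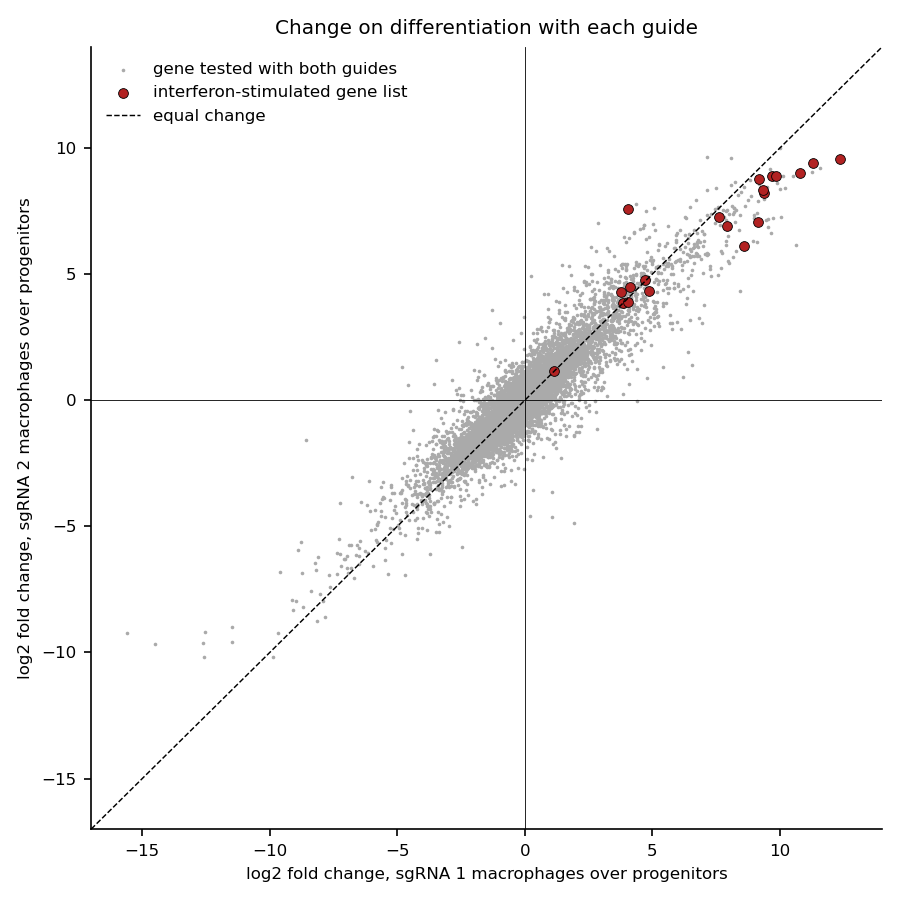
Log2FC of macrophages over progenitors with sgRNA 1 (horizontal) and sgRNA 2 (vertical), with a point for each of 10561 genes tested with both guides and the interferon-stimulated genes in red. Most red points lie high on both axes, and Mpo lies far lower with sgRNA 1 (-15.60) than with sgRNA 2 (-9.21).

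Some changes had another size with sgRNA 2, in falls and in rises. Mpo went to -15.60 with sgRNA 1 and -9.21 with sgRNA 2, whose progenitors had a median of 11.23 log2 CPM. Of the 24 mitosis genes 19 fell with sgRNA 2 (median -2.49), and Mki67, which had a change of -1.42 there, was not called. Kit had a change of -1.58, from a progenitor median of 2.39. Ccnd1 rose by 7.95 and Ccnd2 had a change of 0.55. Of the 13 macrophage identity genes, 12 rose with sgRNA 1 and 8 with sgRNA 2 (median 3.40), and Ccl4 had a change of -0.57 there. The 7 scavenger genes that rose with sgRNA 1 compare with 4 that rose with sgRNA 2 (median 0.33), and Sepp1 had a change of 1.54. No NTC cells belong to the sgRNA 2 set, so the difference from NTC was not tested there, nor was the difference between guides.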

How the data were processed

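The deposited table, made by the authors with kallisto 0.46.0, tximport and edgeR from bulk RNA libraries, holds log2 CPM after TMM scaling for 29957 genes in 92 libraries. It falls into 6 normalization sets by its lowest value. The authors' log2 values were used as deposited. Genes above a log2 CPM of 0 in at least 3 of the 11 libraries of the set (11119) were fitted with limma 3.58.1 in R 4.3.3 (4 groups, trend, moderated variance), with 3 contrasts: Adar KO macrophages over progenitors, NTC macrophages over progenitors, and their difference. The sgRNA 2 cells were fitted alone. P-values were adjusted over all genes tested (Benjamini-Hochberg). The fit was tested on simulated data, with independent noise and known changes in a small share of genes well above the floor. That does not cover genes at the floor, RNA of other cells or changes in many genes. Named genes are the members of the gene lists, the 5 most abundant genes of each group and, in the change and the difference, the 10 called genes with the largest log2FC each way whose groups do not overlap, whose higher group mean is at least 4 log2 CPM, and that are no brain marker or gene model. Some of these genes are not reported here. Read depth was estimated from the value of a gene at 1 count. The members and lists were chosen with earlier results of these data known. Guide sequences were not used here. Promoters came from RefSeq. Alternatives were other filters, pseudocounts, scalings, weights and left-out libraries. Summaries and figures used Python 3.11.15, pandas 2.3.3, numpy 2.4.6 and matplotlib 3.10.9.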

Additional observations from a re-analysis of the deposited data

Results flagged for a closer look

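A difference between groups drew attention to 392 genes whose change from progenitor to macrophage was higher in Adar KO sgRNA 1 cells than in NTC cells and to 77 genes whose change was lower. Among genes that pass the naming rule, the 10 with the largest positive difference were Ly6a (8.55), Plac8 (7.87), Ifi44 (7.65), Csprs (7.41), Rsad2 (7.24), Ifit1 (7.03), Pydc3 (6.83), Trim30d (6.80), Usp18 (6.65) and Ly6i (6.53), as differences of log2FC. Among the same genes, those with a large negative difference included Scd1 (-5.17), Sepp1 (-4.17), Zfp36l1 (-3.75), Apoc2 (-3.69), Colec12 (-3.47), Wfdc17 (-2.98), Igfbp4 (-2.90), Rnase4 (-2.82) and Slc46a3 (-2.75).

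A sample marked by a rule for outliers was Adar KO sgRNA 2 macrophage replicate 4. Its median over the ribosome biogenesis list was 5.84 log2 CPM, while the other libraries lay between 5.73 and 5.76. The gap is small, and the list was marked because the other libraries lie close together. Of 22 lists looked at in that group this was the only 1 marked, and how often chance marks a list was not tested.

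NTC macrophage replicate 2, which the main tests do not use, carried erythroid markers at a sum of 269 CPM and neuron markers at a sum of 8.04 CPM, above NTC macrophages 1 and 3, which had 0.207 and 0.262 CPM for erythroid and 3.33 and 3.40 CPM for neuron markers.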

How the results depend on the processing

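The counts of changed genes depended on the size limit, the scale and the pseudocount. With a limit of 1 in place of 2, 2480 genes rose and 2597 fell in Adar KO sgRNA 1 cells, 2534 and 2922 in NTC cells and 2500 and 2452 with sgRNA 2, and the difference from NTC was higher for 746 genes and lower for 261; a smaller limit admits more genes. Scaled to the library total, an alternative chosen after seeing the data, 1913 genes fell, and small changes in Adar KO cells turned negative for Ccnd2 (-0.29), Mlkl (-0.55), Psmb10 (-0.02), Tlr4 (-0.16) and Tmem119 (-0.21). With a pseudocount of 1, 978 genes rose and 771 fell in Adar KO cells and the difference from NTC was called for 261 genes higher and 49 lower, with genes above 5 CPM alone 44 were lower, and with NTC macrophage replicate 2 brought to a common scale 118 were lower; the cause was not tested.

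Leaving out each library in turn gave between 1223 and 1335 genes higher and between 1085 and 1152 lower in Adar KO cells, and between 335 and 489 higher and between 62 and 85 lower for the difference from NTC. Without the brain lists 1112 genes fell, and without genes at 1 CPM or less in every sgRNA 2 progenitor library, also chosen after seeing the data, 985 did. Replicate numbers were not taken to pair the libraries. The correlation of residuals between libraries with the same number was -0.02, 0.13 and -0.01 in Adar KO and 0.04 and 0.19 in NTC cells. Between libraries with other numbers it lay between -0.19 and 0.12. The residuals of NTC macrophages 1 and 3 mirror each other, since they are deviations from the mean of these 2 libraries. So these values cannot decide whether replicates are paired. With replicate number as a block 1297 genes rose and 1132 fell.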
